A study of Homo sapiens with 14 samples.

Results

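DRAM1, C15orf57, MGST1, TMEM92, FAM161A and FAM43A are 6 human genes grouped because their mean RNA level was low after knockdown of PPHLN1 and not in the other groups of the same experiment. They were picked by name from 16433 genes with usable values, with the PPHLN1 results already known. Their low PPHLN1 means are therefore a description and no test of them is given. "Lost" would overstate the pattern, because the PPHLN1 mean of each gene stood above the level of a group without reads. For TMEM92 and FAM161A this mean joins a library with 0 reads and a library with 84 or 28 reads, as described further on.

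RNA was measured in K562, an established human chronic myeloid leukaemia line, carrying dCas9-KRAB. This is a Cas9 that cannot cut DNA, fused to a repressor domain, and a guide RNA directs it to silence a promoter (CRISPR interference). The 6 groups were untransduced dCas9-KRAB cells, cells with a guide against AAVS1 (sgAAVS1, the negative control) and cells with guides against TASOR, TASOR2, MPP8 or PPHLN1, all transduced cells being harvested 7 days after transduction. The labels list 14 libraries: 2 untransduced, 3 sgAAVS1, 2 TASOR, 3 TASOR2, 2 MPP8 and 2 PPHLN1. The 2 PPHLN1 libraries each carried a different guide, so they are independent guides and not repeats of the same one. The sources used here do not say whether the dCas9-KRAB line is a single clone.

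PPHLN1 encodes Periphilin, a subunit of the HUSH complex, which recognises transcribed foreign or repeated DNA such as LINE-1 elements and recruits the histone H3 lysine 9 methyltransferase SETDB1 to silence it. TASOR and MPP8 are the other HUSH subunits. In HUSH2, TASOR2 takes the place of TASOR, while MPP8 and Periphilin are shared. Loss of this repression is known for raising the RNA of its targets.

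The 6 genes lie apart from each other on hg38, are all annotated as protein-coding and have different known functions. DRAM1 (chromosome 12, 101877351 to 102012130, plus strand) encodes a lysosomal membrane protein that promotes autophagy downstream of p53. MGST1 (chromosome 12, 16347142 to 16609259, plus strand) encodes a membrane-bound glutathione transferase that reduces lipid peroxides. C15orf57, now named CCDC32 (chromosome 15, 40528683 to 40565057, minus strand), encodes a coiled-coil protein needed for assembly of the AP2 adaptor of clathrin-coated vesicles. FAM161A (chromosome 2, 61824854 to 61854143, minus strand) encodes a microtubule-binding protein of centrioles and cilia. TMEM92 (chromosome 17, 50271406 to 50281485, plus strand) encodes a membrane protein, and FAM43A (chromosome 3, 194686544 to 194689037, plus strand) a small cytoplasmic protein.

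Promoter sequence is shown because the 6 genes have low means in the same group. The sources used here gave no guide sequences, so matches of the guides to these promoters were not looked for. RefSeq (GRCh38.p14) gave a promoter for 5 of the 6 genes, and none for TMEM92. MGST1 has 3 entries, of which the first is printed and counted. The RefSeq start sites differ from the gene bounds given above. For FAM43A the RefSeq start was 194685883, before the bound of 194686544. For the first MGST1 entry it was 16347645, after the bound of 16347142. The 250 bases before the start site were searched on both strands for 10 motifs: the TATA box (TATAAA), the CCAAT box, the GC box (GGGCGG), the ETS motif (CCGGAAG), the NRF1 motif (GCGCATGCG), the YY1 motif (AAGATGGC), the GATA motif (AGATAA), the AP-1 motif (TGANTCA), the core of the antioxidant response element (TGACNNNGC) and the core of the interferon-stimulated response element (GAAANNGAA). No 2 of the matches marked in a stretch overlap. The stretches printed here, 5′ to 3′ on the strand of the gene, leave out bases that lie in a GENCODE exon. Capitals mark motif matches on either strand. They are chr15:40565058-40565292 (minus) for C15orf57, where the last capitals are the part of a TGACNNNGC match outside the exon, chr12:16347395-16347644 (plus) for MGST1, chr2:61854144-61854310 (minus) for FAM161A and chr3:194685633-194685882 (plus) for FAM43A.
C15orf57: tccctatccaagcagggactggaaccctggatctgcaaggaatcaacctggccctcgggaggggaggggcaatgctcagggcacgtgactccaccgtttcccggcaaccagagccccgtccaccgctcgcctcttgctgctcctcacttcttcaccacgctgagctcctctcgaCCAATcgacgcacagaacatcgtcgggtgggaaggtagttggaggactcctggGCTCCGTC
MGST1: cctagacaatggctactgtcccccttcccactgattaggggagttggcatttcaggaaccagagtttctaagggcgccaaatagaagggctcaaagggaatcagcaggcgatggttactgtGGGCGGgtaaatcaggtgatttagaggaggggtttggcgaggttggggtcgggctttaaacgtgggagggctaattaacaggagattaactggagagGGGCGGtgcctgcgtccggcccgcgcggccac
FAM161A: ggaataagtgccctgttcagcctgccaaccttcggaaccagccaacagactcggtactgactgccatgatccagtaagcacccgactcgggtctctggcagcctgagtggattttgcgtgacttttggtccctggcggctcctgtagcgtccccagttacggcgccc
FAM43A: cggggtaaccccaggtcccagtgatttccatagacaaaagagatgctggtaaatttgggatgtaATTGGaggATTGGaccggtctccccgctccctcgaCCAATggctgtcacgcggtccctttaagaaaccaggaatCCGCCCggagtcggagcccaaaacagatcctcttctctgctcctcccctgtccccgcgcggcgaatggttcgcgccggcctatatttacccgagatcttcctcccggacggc

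No searched motif was found in all 5 of these promoters (the first entry for MGST1). The GC box was found in 3 of 5 (DRAM1, MGST1 and FAM43A), beside 42.6% of 35116 RefSeq promoters of the same length. CCAAT was found in 2 of 5 (C15orf57 and FAM43A), beside 32.0% of all promoters. The antioxidant response element core was found in C15orf57 and not in MGST1, beside 10.9% of all promoters. The other 7 motifs had no match in these 5 windows, which says only that these letters are absent there. In the other MGST1 entries, the second held a GC box and the third held a TATA box and a CCAAT box, so with any entry counted the CCAAT box was found in 1 gene more and the TATA box in 1 gene. Of the DRAM1 window, 229 of 250 bases lie in a GENCODE exon, so it is not printed. Its GC content was 73.2%, beside 62.4% for C15orf57, 56.4% for MGST1, 64% for FAM161A, 58% for FAM43A and a median of 58% over all promoters. CpG dinucleotides numbered 34 in DRAM1, 15 in C15orf57, 12 in MGST1, 17 in FAM161A and 19 in FAM43A, beside a median of 11. The second and the third MGST1 entries had a GC content of 66% and 37.6%, with 19 and 3 CpG dinucleotides, so where MGST1 stands beside these medians depends on the entry.

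All values are the authors' group means of log2 reads scaled to a common depth, so no SD over libraries can be given. In such bulk RNA, fewer cells that express a gene and less RNA in each cell cannot be told apart. Because each mean is built from whole reads, the mean number of reads per library (a geometric mean) and the number of libraries behind it could be recovered. It is 3 libraries for sgAAVS1 and 2 for each of the other 5 groups, including TASOR2. With the scale read as RPM, depth was similar between groups, from 5857937 reads per library in TASOR2 to 7406968 in untransduced cells, with 5963710 in PPHLN1. Of the erythroid genes that mark K562 cells, the group means of GATA1, a transcription factor, ran from 7.11 to 7.45 and those of HBG2, a fetal globin, from 7.13 to 7.39. The log2 of the summed level of lymphoid markers ran from 5.14 to 5.62, myeloid 6.36 to 6.66, epithelial 6.14 to 6.38 and fibroblast 5.82 to 6.38. Of these markers, MS4A1, ELANE, KRT5, KRT14 and COL3A1 were under 1 read per library in every group. Others were well read, such as EPCAM (6.13 to 6.37), LYZ (5.83 to 6.14), COL1A1 (5.44 to 5.93) and CD3D (4.30 to 4.78). The targeted genes were lowest in their own knockdowns, and PPHLN1 itself was left at 40.8% of sgAAVS1. Its means were 6.69 in untransduced cells, 6.57 in sgAAVS1, 6.80 in TASOR, 6.80 in TASOR2, 6.66 in MPP8 and 5.27 in PPHLN1.

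DRAM1 had group means of 4.98 in untransduced cells, 4.80 in sgAAVS1, 4.76 in TASOR, 5.42 in TASOR2, 4.95 in MPP8 and 2.36 in the PPHLN1 knockdown. In reads per library, this was 173 in sgAAVS1 and 30.6 in PPHLN1. Among the 5 other groups TASOR2 was highest and TASOR lowest, and the PPHLN1 mean stood 2.40 below the lowest of them. MGST1, the lipid peroxide reductase, had means of 4.39, 4.16, 4.30, 4.68, 4.19 and 2.38 in the same order of groups, or 111 reads per library in sgAAVS1 and 31.1 in PPHLN1. As for DRAM1, TASOR2 had the highest mean and PPHLN1 the lowest.

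C15orf57, the AP2 assembly gene, was the most deeply read of the 6. Its means were 6.28 in untransduced cells, 6.28 in sgAAVS1, 6.43 in TASOR, 6.30 in TASOR2, 6.23 in MPP8 and 4.18 in PPHLN1, with 481 reads per library in sgAAVS1 and 108 in PPHLN1. FAM161A, the centriole gene, had means of 2.12, 2.30, 2.66, 2.25, 1.93 and -0.25, with 30.5 reads per library in sgAAVS1 and 5.02 in PPHLN1. Its 5 other groups were the most widely spread of the 6 genes, with TASOR highest and MPP8 lowest, and all were above PPHLN1.

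TMEM92 had means of 3.08 in untransduced cells, 2.93 in sgAAVS1, 3.17 in TASOR, 2.99 in TASOR2, 3.25 in MPP8 and 0.54 in PPHLN1. This was 47.1 reads per library in sgAAVS1 and 8.69 in PPHLN1. FAM43A had means of 2.41, 2.78, 2.66, 2.66, 2.77 and 0.83, with 42.5 reads per library in sgAAVS1 and 10.6 in PPHLN1. For every one of the 6 genes, the PPHLN1 mean lay below all 5 other means. This is the pattern for which they were picked, so nothing is read from it. Among 13714 genes whose 5 other means were all above 1, 12 genes, these 6 included, had a PPHLN1 mean at least 1 below all 5.

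**Figure D1:**
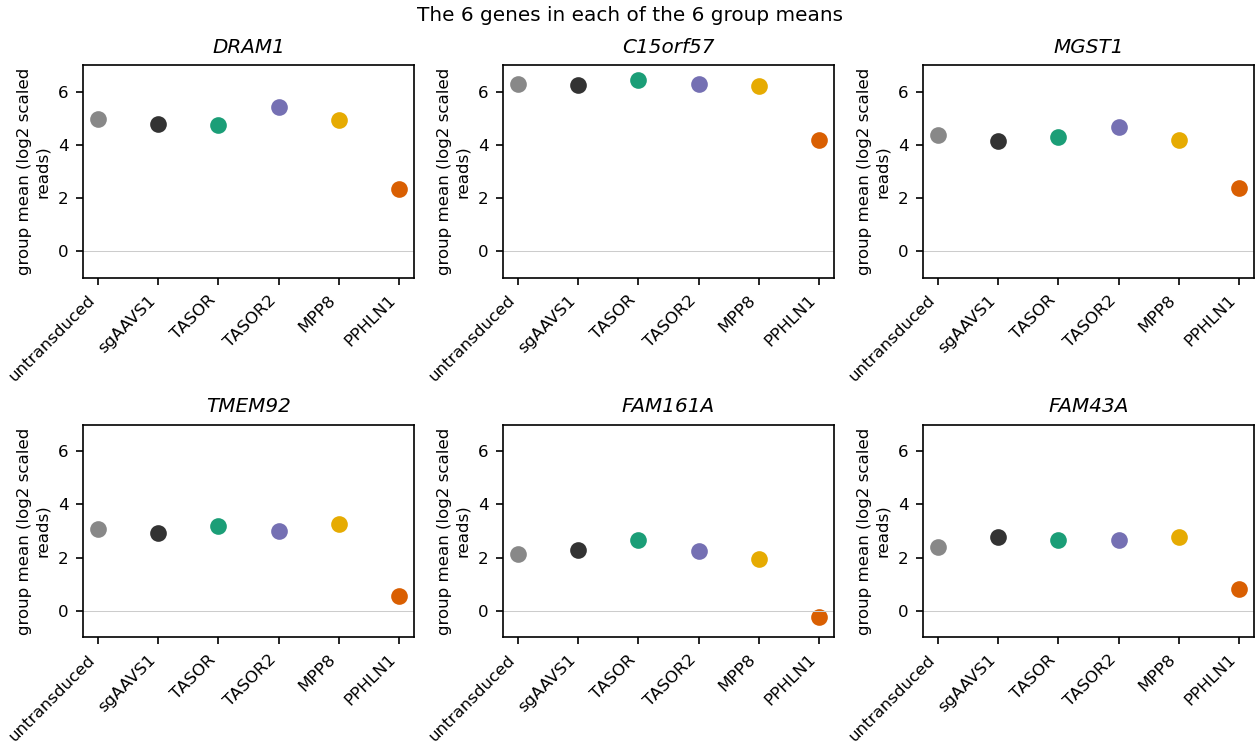
The deposited group mean of each gene (log2 scaled reads, vertical axis) is drawn as 1 point for each of the 6 groups (horizontal axis); there are no error bars because single libraries were not analysed here. In every panel the PPHLN1 knockdown is the lowest point, from -0.25 for FAM161A to 4.18 for C15orf57.

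The first comparison asked how far the genes stood from the control guide. Differences are log2 differences of group means, and the number behind each ± gives one side of a 95% counting interval, which leaves out spread between libraries and takes the libraries of a group as equal. DRAM1 differed from sgAAVS1 by -2.45 ± 0.39 in the PPHLN1 knockdown, which left 18.4% of the control level. C15orf57 differed by -2.10 ± 0.21 (23.4% left), MGST1 by -1.78 ± 0.40 (29.1% left) and FAM43A by -1.95 ± 0.72 (25.9% left). TMEM92 and FAM161A differed by -2.38 and -2.55, and no interval is given because their libraries were unequal, as described further on. For DRAM1 the interval is printed although its PPHLN1 libraries were unequal too, and it holds only for equal libraries. The same limit applies to MGST1, whose most even possible pair of PPHLN1 reads differed 2-fold. All 6 differences were larger than the -1.29 ± 0.15 of PPHLN1 itself.

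A gene was called lower or higher when its difference was 1 or more on the log2 scale, its counting interval left out 0 and the larger of the means exceeded 0. By this rule 6 of 6 genes were lower in PPHLN1 than in sgAAVS1, beside 0.584% of all 16433 genes (96 genes). For TMEM92 and FAM161A the rule used an interval that takes the libraries as equal, which they were not, and without these the count is 4 genes. DRAM1 is among these 4. Its PPHLN1 libraries were unequal too, so its calls and intervals here also take as equal libraries that were not. All 6 were also lower than in untransduced cells (0.73% of all genes lower and 1.47% higher), MPP8 (0.536% and 0.803%), TASOR (0.913% and 1.28%) and TASOR2 (1.42% and 4.76%). Nothing is read from these counts, since the 6 genes were chosen on these means. The median difference of the 6 genes was -2.24 against sgAAVS1, -2.24 against untransduced cells, -2.12 against MPP8, -2.33 against TASOR and -2.37 against TASOR2. Over all genes the median ran from 0.02 to 0.17 in the same comparisons, all 5 of which share the PPHLN1 mean. DRAM1 was farthest from the TASOR2 mean, at -3.07 ± 0.39, and FAM43A was nearest to untransduced cells, at -1.59 ± 0.74.

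The other groups were set against sgAAVS1 as a description. The genes were picked partly for not being low in these groups. Nothing is therefore read from the absence of lower values in them, MPP8 included. None of the 6 was called higher or lower in TASOR (0.298% of all genes lower and 1.78% higher), TASOR2 (1.89% and 2.06%), MPP8 (0.262% and 1.51%) or untransduced cells (0.219% and 1.25%). Their medians were 0.15, 0.05, 0.01 and 0.08, beside 0.16, 0.07, 0.12 and 0.05 over all genes. MPP8 is the subunit that, like Periphilin, is shared by both complexes. There DRAM1 differed by 0.14 ± 0.19, C15orf57 by -0.05 ± 0.12, MGST1 by 0.02 ± 0.25, TMEM92 by 0.32 ± 0.36, FAM161A by -0.36 ± 0.53 and FAM43A by 0.00 ± 0.41. Each of these 6 counting intervals held 0.

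In TASOR2, DRAM1 was 0.62 ± 0.18 and MGST1 0.52 ± 0.23 above sgAAVS1, short of the size of 1 but with intervals that exclude 0. In TASOR, C15orf57 was 0.16 ± 0.11 above sgAAVS1, the same as the median of all genes. FAM161A was 0.36 ± 0.43 and TMEM92 0.24 ± 0.35 above it there, and both intervals held 0. The knockdowns were not equally deep: transcript left of the targeted gene was 6.56% for TASOR, 37.5% for TASOR2 and 28.2% for MPHOSPH8 (which encodes MPP8), beside 40.8% for PPHLN1.

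**Figure D2:**
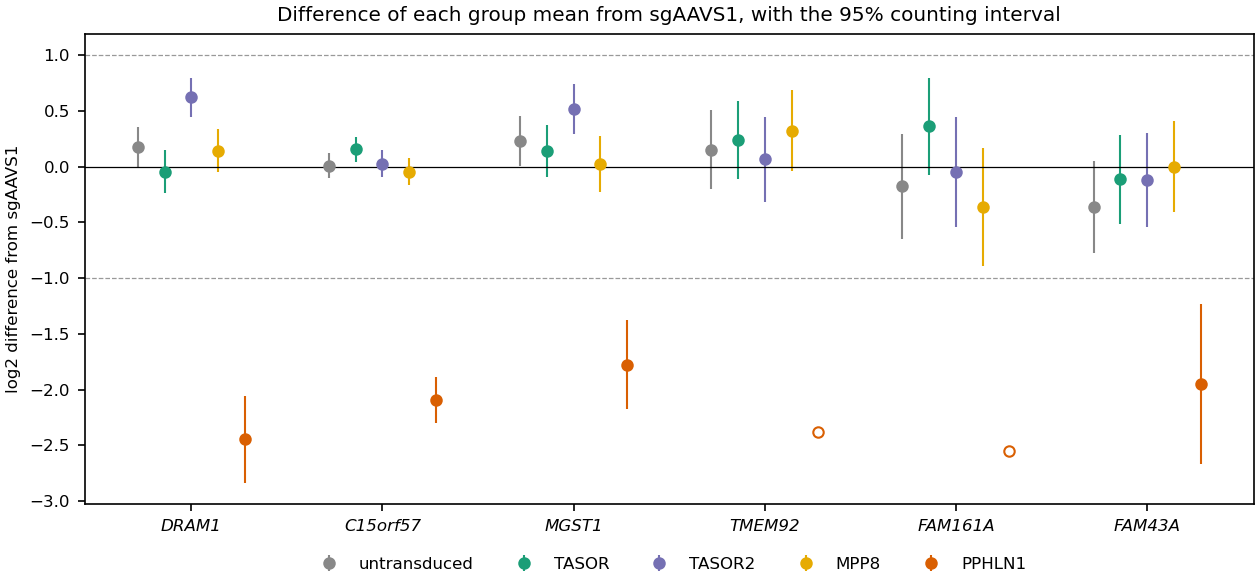
Log2 differences from sgAAVS1 (vertical axis) are drawn for the 6 genes (horizontal axis) in each other group. Bars are 95% counting intervals, which take the libraries of a group as equal. Open circles mark TMEM92 and FAM161A in the PPHLN1 knockdown, which have no interval. PPHLN1 values lie between -2.55 and -1.78, and the values of the other groups between -0.36 and 0.62.

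To see how common the pattern was, each gene was given a gap, the lowest of the 5 other group means minus the PPHLN1 mean, on the log2 scale. Over 13714 genes whose 5 other means were all above 1, the median gap was -0.24 and 12 genes had a gap of at least 1. The 6 genes held ranks 2 to 7, with gaps of 2.40 for DRAM1, 2.38 for TMEM92, 2.18 for FAM161A, 2.05 for C15orf57, 1.78 for MGST1 and 1.59 for FAM43A. Rank 1 was RP11-351C21.2, with a gap of 4.74. It lies inside the PPHLN1 gene itself (chromosome 12, 42361267 to 42361703), and whether reads of the 2 genes were told apart by strand is unknown. PPHLN1 ranked 10, with 1.29. Just outside the 6 genes came SPIDR, a DNA repair scaffold gene, at 1.54, UBL7, a ubiquitin-like gene, at 1.40, PRKCI, an atypical protein kinase C, at 1.19, PRKG2, a cGMP-dependent kinase, at 1.11, and NIPSNAP3B at 0.96. There is thus no break in size between FAM43A and SPIDR. By the rule applied against each of the 5 other groups, 16 genes (0.0974% of 16433) were lower in PPHLN1, and these include the 6.

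By correlation with the mean profile of the 6 genes over the 6 groups, among 783 genes that vary by at least 1, PPHLN1 was the closest (Pearson's r 0.996). RP11-351C21.2 (0.994), UBL7 (0.993), PRKCI (0.993) and SPIDR (0.989) followed. With 6 points, of which 1 stands far from the others, r mostly measures that point. It is given as a description of likeness.

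**Figure D3:**
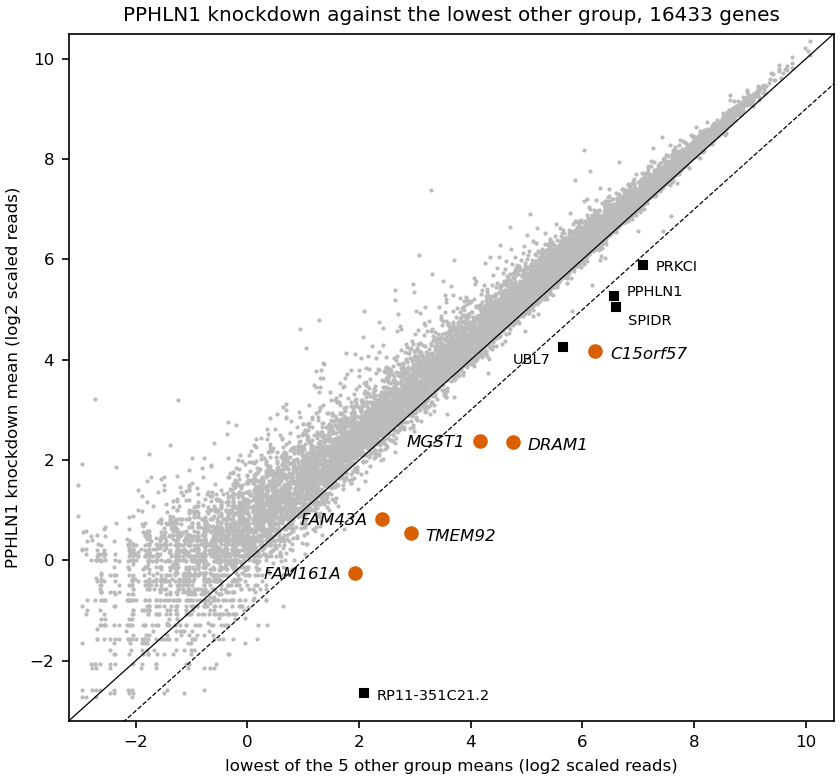
Each of 16433 genes is drawn by the lowest of its 5 other group means (horizontal axis) and its PPHLN1 knockdown mean (vertical axis), both in log2 scaled reads; the solid line marks equal values and the dashed line a gap of 1. The 6 genes (orange) lie below the dashed line with gaps of 1.59 to 2.40, together with RP11-351C21.2, SPIDR, UBL7, PPHLN1 and PRKCI (black squares).

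The whole reads behind each mean show how the 2 PPHLN1 guides could have contributed. A mean of 2 libraries fixes the product of their reads, with 0 reads entered as 0.9, and only a few pairs of whole numbers give a small product. For TMEM92 the product is 75.6, and the only pair that gives it is 0 reads in one library and 84 in the other. For FAM161A it is 25.2, and the only pair is 0 and 28. So for these genes one PPHLN1 library had no reads. The reads of the other were above the range of the other groups' means for TMEM92 and inside it for FAM161A. Those means were 46.6 to 62.5 reads per library of TMEM92, all under 84, and 22.6 to 43.9 of FAM161A, a range that includes 28. They are geometric means over libraries, set beside a single library whose own depth is unknown. Single libraries of the other groups may lie outside these ranges. A library with 0 reads allows up to 3 reads, for counting error only.

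A pair of this kind was rarely the only one possible. Among 16433 genes, those for which the only possible pair was 0 reads and 20 or more numbered 2 in PPHLN1 (TMEM92 and FAM161A), 1 in TASOR2 (RP11-702F3.3, 0 and 25 reads) and 0 in each of untransduced cells, TASOR and MPP8. These are lower limits, since a product that also has a pair without 0 is not counted. In those 4 groups the most even pair for TMEM92 ran from 62 and 63 reads in untransduced cells to 35 and 62 in TASOR2. For FAM161A it ran from 25 and 31 in TASOR2 to 26 and 40 in untransduced cells. Which guide had no reads, and whether it was the same guide for both genes, cannot be read from a product. An arithmetic mean of the reads, taken as a second summary after the pairs were seen, gives 42 reads for TMEM92 and 14 for FAM161A. Set against the sgAAVS1 mean, which stays a geometric mean and so cannot exceed an arithmetic one, TMEM92 was at 92.7% (log2 difference -0.11) and FAM161A at 47.7% (-1.07). By these mixed means TMEM92 was no longer called.

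For the other 4 genes several pairs are possible. DRAM1 (product 935) could be 17 and 55 reads, 11 and 85, 5 and 187 or 1 and 935. Even its most even pair differed 3.24-fold, a ratio reached by 4 of 1131 genes with a similar PPHLN1 product (0.354%), where the median was 1.19. The same ratio at a similar product was reached by 1 of 1170 genes in untransduced cells, 1 of 1135 in TASOR, 8 of 1062 in TASOR2 and 0 of 1112 in MPP8. DRAM1 reads were therefore unequal between the PPHLN1 libraries whichever pair holds. Its most even pairs elsewhere differed 1.12-fold in TASOR2 to 1.35-fold in TASOR.

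MGST1 (product 968) could be 22 and 44 reads, 11 and 88, 8 and 121 or 3 more uneven pairs. Its most even ratio of 2 was reached by 22 of 1133 genes with a similar PPHLN1 product (1.94%). FAM43A (product 112) could be 8 and 14, 7 and 16, 4 and 28, 2 and 56 or 1 and 112, and 14.4% of similar genes were at or over its most even ratio of 1.75. C15orf57 (product 11684) could be 92 and 127, 46 and 254, 23 and 508 or 3 more uneven pairs, and 7.24% of similar genes were at or over its ratio of 1.38. A pair whose higher library falls in the range of the mean reads of the 5 other groups exists for DRAM1 (5 and 187, range 173 to 252), MGST1 (8 and 121, range 108 to 156) and C15orf57 (23 and 508, range 445 to 600), but not for FAM43A (range 37.0 to 44.0). For FAM43A, 2 and 56 or 1 and 112 would put the higher library above that range, as the 84 reads did for TMEM92. Whether these 4 genes were low with both guides or mainly with one cannot be told from the means. For DRAM1 the libraries differed, by an amount the mean does not fix. No possible pair of MGST1 differed by less than 2-fold, so its interval and calls also take as equal libraries that differed in reads.

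**Figure D4:**
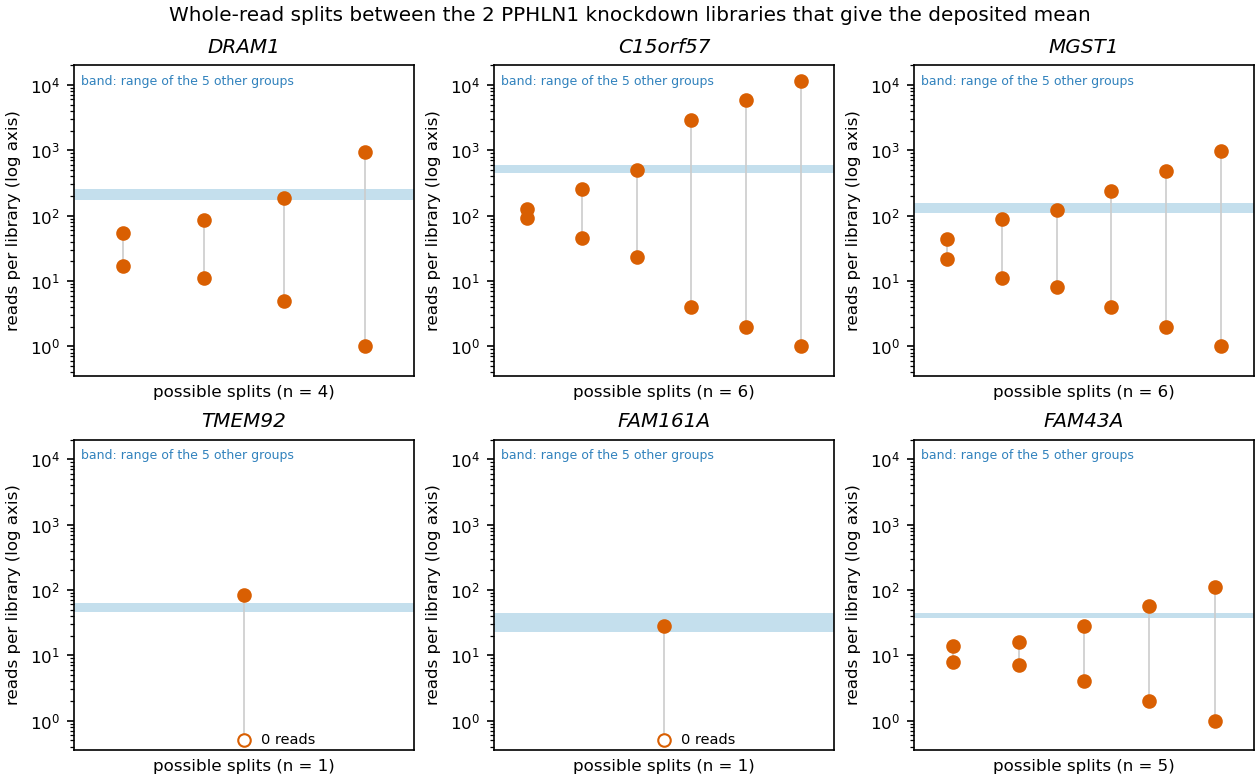
For each gene, every pair of whole reads in the 2 PPHLN1 libraries that gives the deposited mean is drawn as 2 joined points (reads per library, log axis), with the possible pairs side by side; an open circle stands for 0 reads, and the blue band is the range of the mean reads per library in the 5 other groups. TMEM92 (0 and 84) and FAM161A (0 and 28) have a single possible pair, and the others have 4 to 6.

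To see whether the low means extended along the chromosome, genes that overlap a member or start within 200 kb of its start were examined. Of 66 such genes 31 had usable values, and 0 were called in PPHLN1 against sgAAVS1. Over all genes 0.584% were lower and 2.71% higher. At these shares few calls or none would be found among 31 genes, so nothing is read from the count. Their differences ran from -0.19 to 0.70 with a median of 0.17, the same as the median of all genes. GNPTAB, a lysosomal enzyme-targeting gene beside DRAM1, differed by 0.10 ± 0.10, and CCDC53 on its other side by 0.34 ± 0.24. RPUSD2 and CHST14, beside C15orf57, differed by 0.18 ± 0.16 and 0.23 ± 0.13. COL1A1 and XYLT2, beside TMEM92, differed by -0.19 ± 0.15 and 0.26 ± 0.12. CCT4, beside FAM161A, differed by 0.16 ± 0.07, and LSG1, beside FAM43A, by 0.19 ± 0.11. No neighbour of MGST1 had usable values. LMO3, which overlaps MGST1, and RP11-512N21.3, RP11-111A22.1, RP11-424M22.3 and 1 more gene that overlap DRAM1, C15orf57 or MGST1 were at or near 0 reads per library in both groups.

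**Figure D5:**
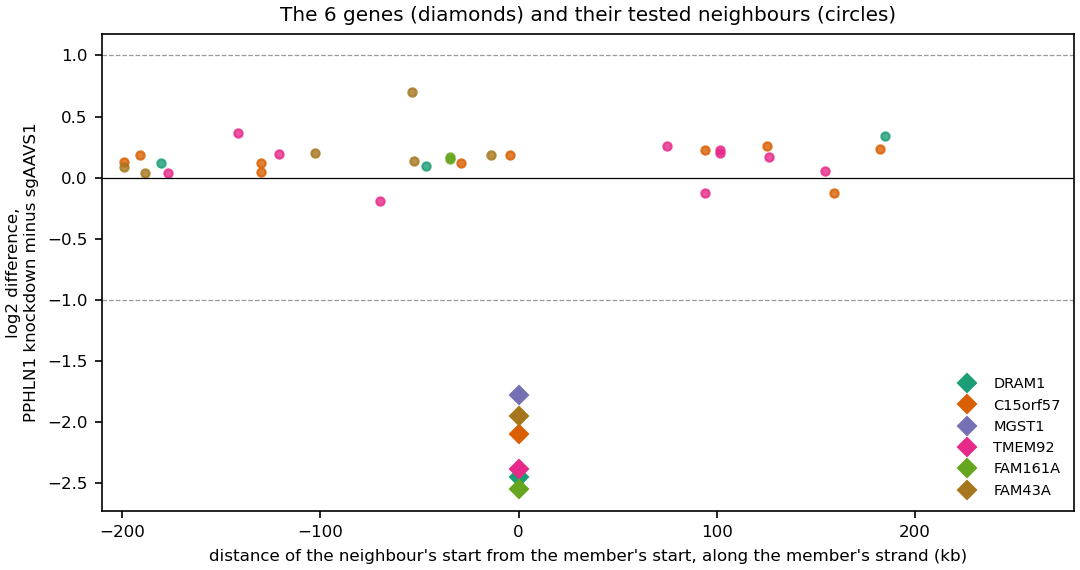
Log2 differences between PPHLN1 and sgAAVS1 (vertical axis) are drawn for each gene and its tested neighbours against the distance between their starts in kb (horizontal axis). The 6 genes lie between -2.55 and -1.78 and the 31 neighbours between -0.19 and 0.70.

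The pathways in which the 6 genes act were examined through gene lists chosen for their functions, which leave out the 6 genes themselves. In PPHLN1 against sgAAVS1, 0 of 33 autophagy and lysosome genes, 0 of 21 p53 target genes, 0 of 22 glutathione and MAPEG family genes, 0 of 28 AP2 and clathrin endocytosis genes and 0 of 34 cilium and centriole genes were called in either direction, beside 0.584% lower and 2.71% higher over all genes. Their medians were 0.16, 0.14, 0.18, 0.14 and 0.13, beside 0.17 over all genes. The same 5 lists had no called gene in any of the other 3 knockdowns. Lists of this size would hold few called genes or none at such shares, so nothing is read from these counts. Among 14 HUSH, HUSH2 and partner genes only the targeted PPHLN1 was lower in its knockdown, and the median was 0.18.

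The closest relatives of the members did not follow them. DRAM2, the paralogue of DRAM1, had means of 6.20 in sgAAVS1 and 6.32 in PPHLN1, a difference of 0.12 ± 0.12. MGST2 and MGST3, glutathione transferases related to MGST1, differed by 0.15 ± 0.18 and 0.02 ± 0.15, MGST3 going from 5.67 to 5.69. FAM161B was at 3.46 and 3.42, a difference of -0.04 ± 0.32. It was not called elsewhere either, at 0.48 ± 0.28 in TASOR and -0.65 ± 0.38 in TASOR2. FAM43B had too few reads to be tested.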

How the data were processed

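RNA libraries of K562 cells were sequenced by the authors; per the labels' protocols, ribosomal RNA was depleted and directional libraries were made. Per the submitters' processing notes, cutadapt, Bowtie2 and hg38 were used; the sources used here give no versions, counter or use of strand. A table of 35805 gene rows was deposited. The deposited untransduced column is a mean log2 value; the 5 other deposited columns are a score, each group's mean log2 divided by the untransduced one, and were multiplied back. All rows with a product of reads under 1000 gave whole reads in each of the 6 groups (100%, within 0.001), with 0 reads entered as 0.9; this gave depth and possible read pairs.

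Rows sharing a symbol (87) were dropped, and genes with at least 1 group mean above 0 were kept (16433). The size rule and the 95% Poisson interval replace a test. On simulated PPHLN1 data 94.2% of 104 genes changed by 1.2 and 100% of 96 changed by 2.5 were recovered, 0.339% of 16233 unchanged genes were called, and the true pair was among the possible pairs in 100% of 5890 genes. Counting error alone was simulated.

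The members and gene lists were chosen with earlier results of these data known. Named genes were the members, the 12 largest gaps besides PPHLN1, the 5 most alike profiles, the nearest and overlapping neighbours, paralogues and targeted genes. The K562 marker list is not reported in full here. Alternatives were other scalings, a pseudocount of 1, low-value filters, the other control and, chosen after seeing the data, arithmetic means. Python 3.11.15, numpy 2.4.6, pandas 2.3.3, scipy 1.17.1 and matplotlib 3.10.9 were used.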

Additional observations from a re-analysis of the deposited data

How the results depend on the processing

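No paired analysis was possible because the columns are group means that carry no replicate numbers, and leaving out a replicate could not be run for the same reason. Against sgAAVS1, 542 genes were called in PPHLN1 (446 higher, 96 lower). A pseudocount of 1 gave 198 (178 higher, 20 lower), a higher mean above 2 gave 201 (175 and 26), quantile normalization gave 268 higher and 172 lower, no filter on low values gave 204 lower, median centring gave 305 and 138, and untransduced cells as the control 242 and 120. Genes lower than in all 5 other groups went from 16 to 10 with a higher mean above 2 and to 11 with a pseudocount of 1. They went to 24 with no filter on low values and to 17 with median centring or quantile normalization. Of 156 single-gene values in PPHLN1 comparisons under these settings, 155 kept their direction and call, and FAM161A against MPP8 lost its call with a higher mean above 2, at -2.18. In the other comparisons 138 of 138 stayed uncalled, as in the main setting. Their direction was not always kept. MGST1 in TASOR went from 0.14 to -0.09 with untransduced cells as the control. Over 7 settings the difference from sgAAVS1 ran from -2.69 to -2.24 for DRAM1, -2.31 to -2.04 for C15orf57, -2.03 to -1.60 for MGST1, -2.62 to -1.81 for TMEM92, -2.73 to -1.68 for FAM161A and -2.17 to -1.50 for FAM43A. With arithmetic means for PPHLN1 alone, the other groups staying geometric means (chosen after seeing the data), 7 of the 10 PPHLN1 calls of TMEM92 and FAM161A were lost, since an arithmetic mean gives more weight to the library with reads. Intervals cover counting error only, and depth limits FAM161A most.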

Other observations

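Genes outside the 6 with a large gap differed in the pairs of whole reads that give their PPHLN1 means. SPIDR (product 39467) has as its only pairs 61 and 647 reads, a 10.6-fold difference, and 1 and 39467. It was the single gene at or over that ratio among 1954 with a similar product, and sgAAVS1 held 608 reads per library. The most even pair of UBL7 was 112 and 115 reads, beside 311 in sgAAVS1. The most even pair of PRKG2 was 7 and 12 reads, beside 23.9 in sgAAVS1. RP11-351C21.2, inside the PPHLN1 gene, has 0 and 1 reads as its only pair, with a log2 mean of 2.27 in sgAAVS1. These pairs were examined after the values were seen.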
